A study of Mus musculus with 8 samples.

Results

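The miRNAs described here are mmu-miR-150-5p and 4 members of the miR-181 family, mmu-miR-181a-5p, mmu-miR-181b-5p, mmu-miR-181c-5p and mmu-miR-181d-5p, measured in mouse plasma after treatment with imatinib or doxorubicin. They were chosen by name from the 1881 mouse miRNAs on the array, because lymphocytes are a known source of them. All 5 have probes there, 2 different probes each, and the species prefix is left out from here on. Plasma RNA came from female NMRI mice, an outbred laboratory stock, aged 3 months. Imatinib, a tyrosine kinase inhibitor, was dissolved in water and given by mouth at 100 mg/kg a day for 9 days (IMB). Doxorubicin, an anthracycline that damages DNA, was given into the tail vein in saline, 3 mg/kg in each of 4 doses on alternate days (DOX), and control mice received the solvents (CTRL). One array took the RNA of a 300 µl plasma pool of 3 mice and so gives a mean over mice and no spread between them; there were 3 IMB, 3 DOX and 2 CTRL arrays.

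miRNAs are short RNAs that guide Argonaute proteins to messenger RNAs, mainly through the seed, bases 2 to 8 from the 5′ end, and they lower the output of those messengers. miR-150 is abundant in mature B, T and NK cells and is known to repress the transcription factor Myb. The miR-181 family is known from early lymphocyte development: miR-181a is abundant in thymocytes and sets the sensitivity of T cell receptor signalling, and miR-181b is known to repress AID, the enzyme of antibody class switching. In plasma such miRNAs circulate bound to protein or inside vesicles and can also come from platelets and other cells, so a plasma level does not count cells, and fewer cells of a type cannot be told apart from less RNA released per cell.

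The miR-181 sequences are shown because the probes of the family have to tell them apart. Of the 5 members, 4 were matched by name in RefSeq's GRCm38.p6 table, as were all 7 opposite arms of their hairpins. Capitals mark the seed.
miR-181a-5p: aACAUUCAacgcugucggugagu
miR-181b-5p: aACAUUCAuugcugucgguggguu
miR-181c-5p: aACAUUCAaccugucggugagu
miR-181d-5p: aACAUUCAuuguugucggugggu
The seed ACAUUCA is the same in all 4, and no other mature miRNA in that table has it. Counted from the 5′ end, miR-181b-5p differs from miR-181a-5p by A9U, C10U and A21G and has 1 more base at the 3′ end. miR-181d-5p differs from miR-181a-5p by A9U, C10U, C12U and A21G, and from miR-181b-5p by C12U alone apart from the end. miR-181c-5p equals miR-181a-5p with base 11 taken out. With so few differences, a probe may also bind another member, and whether probes did so was not tested.

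miR-181a-5p is encoded in 2 places, in the noncoding miRNA genes Mir181a-1 (chr1:137966468-137966490, plus strand) and Mir181a-2 (chr2:38852741-38852763, plus strand). miR-181b-5p lies beside it in both places, in Mir181b-1 (chr1:137966650-137966673) and Mir181b-2 (chr2:38853845-38853868). miR-181c-5p (chr8:84178924-84178945) and miR-181d-5p (chr8:84178759-84178781) lie next to each other on the minus strand. The array measures the mature sequence, so it does not separate the chromosome 1 copy from the chromosome 2 copy. The opposite arm of the miR-150 hairpin, which is also described here because its detection differed between groups, lies at chr7:45121798-45121819 on the plus strand.
miR-150-3p: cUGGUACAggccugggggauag

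Any array detected 357 of the 1881 miRNAs and every array detected 245; 294 were found throughout at least 1 group and were tested. Detection here means that more than 50% of the retained spots of some probe of the miRNA rose well above background. Brightness differed between arrays before scaling: the 75th percentile of the 454 probes found everywhere ran from 213 to 267 in DOX, from 196 to 425 in IMB, and from 300 to 349 in CTRL, and IMB pool 1 was the dimmest array. Each array was divided by its own percentile and multiplied by a common constant. With 8 arrays the precision of all values is limited. They share 1 slide, whose row 1 holds pools 1 and 2 of DOX and pool 1 of IMB and of CTRL, and whose row 2 holds the rest. Of the 12 miRNAs on a list of lymphocyte miRNAs that includes the 5 members, 4 were detected on all arrays and 3 on none. The summed scaled signal of that list was 1865 to 1902 in CTRL, 1530 to 1780 in DOX and 1192 to 1946 in IMB, so the name "lymphocyte" rests in these plasma samples on few measured miRNAs. The largest single part of that sum on every array was miR-29a-3p, which is found in many cell types.

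miR-150-5p was present in every pool, and neither drug changed it beyond the spread between pools. Its log2 scaled signal was 8.74 and 8.30 in the CTRL pools. In the DOX pools it was 8.45, 8.23 and 8.01. In the IMB pools it was 8.98, 7.70 and 7.79. The highest and the lowest values of all 8 arrays both belong to IMB, pool 1 above both controls and pools 2 and 3 below both, and the DOX pools overlap the controls. The group means were 8.52 ± 0.31 (SD, n = 2) for CTRL, 8.23 ± 0.22 (SD, n = 3) for DOX and 8.16 ± 0.71 (SD, n = 3) for IMB. In this order, CTRL, DOX, IMB, no neighbours differ by more than the spread of the wider group.

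**Figure D1:**
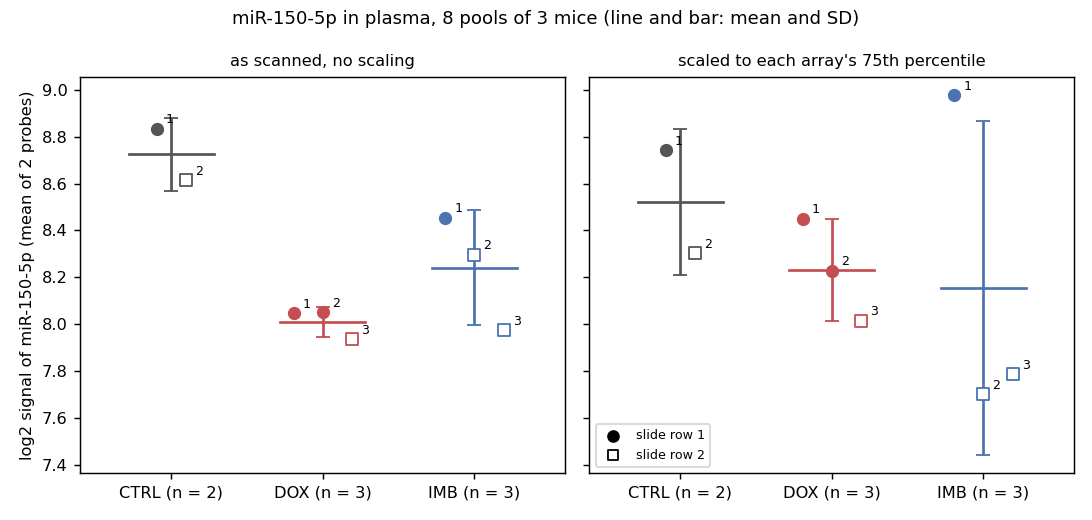
The plot gives the log2 signal of miR-150-5p on each array (points, with pool numbers; filled circles row 1, open squares row 2 of the slide) with group mean and SD, without scaling on the left and scaled on the right. Unscaled, all 6 drug arrays lie below both controls; scaled, IMB pool 1 at 8.98 is the highest of all and the groups overlap.

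With limma on all 8 arrays and Benjamini-Hochberg adjustment over 294 miRNAs, miR-150-5p differed between IMB and CTRL by -0.37 (SE 0.42, 95% interval -1.43 to 0.69, adjusted p = 0.92). Between DOX and CTRL the difference was -0.29 (SE 0.42, interval -1.35 to 0.77, adjusted p = 0.96), and between IMB and DOX -0.08 (SE 0.38, interval -1.02 to 0.87, adjusted p = 1). All groups share 1 estimate of the spread in these SEs. For DOX minus CTRL the SE was 0.21 with only the DOX and CTRL arrays (adjusted p = 0.62 in limma). Without IMB pool 1 it was 0.19 (adjusted p = 0.53 in limma). The lower ends of the 2 intervals against CTRL stand for 0.372 and 0.392 of the control level, so these arrays do not show that the drugs left miR-150-5p as it was. In the same comparisons 1.02%, 0.34% and 1.02% of the 294 miRNAs passed an adjusted p of 0.05 (3, 1 and 3 miRNAs). None of the 5 members was among them, and of the 2 members that were tested none had an unadjusted p under 0.05 in limma, as 7.82%, 8.5% and 10.9% of the 294 miRNAs had. Exact 2-sided permutation tests of miR-150-5p gave p = 0.6 for IMB against CTRL and p = 0.4 for DOX against CTRL, where 3 against 2 pools cannot go below 0.1, and p = 1 for IMB against DOX, where 3 against 3 cannot go below 0.1.

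Both probes of miR-150-5p gave the same order of group means, CTRL, DOX, IMB. Each was detected on all 8 arrays, and all 231 kept spots were well above background. The spots of a probe varied by 2.42% to 6.32% (coefficient of variation) within an array. The probe A_54_P1097 was brighter than A_54_P1096 by 1.64 ± 0.07 on the log2 scale (SD, n = 8 arrays, range 1.54 to 1.75), a property of the probes that moved little from array to array. With A_54_P1096 alone the IMB minus CTRL difference was -0.30 and the DOX minus CTRL difference -0.19. With A_54_P1097 alone they were -0.39 and -0.33. The SD between pools of one group was 0.22 to 0.71, against 0.07 for the difference between probes.

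Without scaling between arrays the pattern was a different one. The mean processed signal of miR-150-5p, in scanner units, was 457 and 392 in the CTRL pools. It was 264, 265 and 245 in the DOX pools, and 351, 314 and 251 in the IMB pools. All 6 drug arrays were dimmer than both controls, and the unscaled log2 difference was -0.71 for DOX and -0.48 for IMB (adjusted p = 0.29 and 1 in limma; exact permutation p = 0.1 and 0.2, 2-sided). In DOX this was common: 49.7% of the 294 tested miRNAs lay below both controls in all 3 unscaled DOX pools, and 9.18% did so in IMB. The median of the 267 tested miRNAs with a value above the floor was itself -0.34 for DOX without scaling, against 0.03 with it, and miR-150-5p lay below that median by 0.38 unscaled and by 0.32 scaled. For IMB it lay below the median by 0.43 unscaled and 0.41 scaled. Total signal, RNA amount and labelling cannot be told apart in these values.

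The position on the slide moved with the level of miR-150-5p. Within each group the scaled arrays of row 1 were higher than those of row 2, by 1.23 in IMB, 0.33 in DOX and 0.44 in CTRL. Among the 267 miRNAs, 12.4% (33) had every row 1 array above every row 2 array in all 3 groups. Within row 1 the IMB minus CTRL difference was 0.23 (1 array each) and within row 2 it was -0.56 (2 arrays against 1). DOX minus CTRL was -0.40 and -0.29 in rows 1 and 2, and IMB minus DOX was 0.64 and -0.27. So on scaled values the sign for DOX was the same in both rows, while both signs for IMB differed between rows. Without scaling, IMB minus CTRL was -0.38 in row 1 and -0.48 in row 2, and IMB minus DOX was 0.41 and 0.20. The signs for IMB then did not differ between rows. With the row as a block, IMB minus DOX turned to 0.15 (adjusted p = 0.91). What the row contributed was not tested further.

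The size of the imatinib and doxorubicin values depended on single arrays, IMB pool 1 most of all. For miR-150-5p it lay 1.23 above the mean of IMB pools 2 and 3, the 5th largest gap among the 267 miRNAs, whose median gap was 0.03. Without it, IMB minus CTRL was -0.78 (SE 0.21, adjusted p = 0.12) and IMB minus DOX -0.49 (SE 0.19, adjusted p = 0.20) in limma. With IMB pool 1 included the same differences were -0.37 and -0.08. Those without it are larger in size and still miss the threshold. Both remaining IMB arrays lie in row 2. IMB minus CTRL was -0.14 without IMB pool 2, -0.18 without IMB pool 3, -0.15 without CTRL pool 1 and -0.59 without CTRL pool 2. DOX minus CTRL was -0.07 without CTRL pool 1, -0.51 without CTRL pool 2 and -0.18 without DOX pool 3.

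Among the other miRNAs of the lymphocyte list, miR-342-3p and miR-146a-5p moved from pool to pool much as miR-150-5p did. miR-342-3p, which lies in an intron of the Evl gene and is abundant in lymphoid cells, had log2 scaled signals of 7.18 and 6.93 in CTRL, 6.83, 6.67 and 6.70 in DOX, and 7.39, 6.21 and 6.34 in IMB. All 3 DOX pools were below both controls, and IMB again had the highest and the lowest pools. miR-146a-5p, a brake on NF-κB signalling, had 7.16 and 7.07 in CTRL, 6.91, 6.89 and 7.01 in DOX, and 7.32, 6.39 and 6.59 in IMB. IMB was split in the same way, on a smaller scale, and all DOX pools were again below both controls. Groups that do not overlap, with DOX lower, were found for 9.86% of the 294 tested miRNAs.

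miR-29a-3p, found in many cell types as well as in lymphocytes, had 10.10 and 10.23 in CTRL, 9.79, 10.12 and 10.25 in DOX, and 9.99, 9.57 and 9.86 in IMB. All 3 IMB pools were below both controls, as were 6.8% of the tested miRNAs. Its difference from CTRL was -0.36 in IMB (SE 0.18, adjusted p = 0.76 in limma). miR-155-5p, a miRNA of activated lymphocytes and myeloid cells, was above the floor (log2 4.39) on 2 of 8 arrays, at 4.77 in CTRL pool 1 and 4.65 in IMB pool 1. miR-146b-5p was detected by the scanner software on all arrays but lay at the floor on all of them, and miR-342-5p and miR-28a-5p were detected on none.

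Of the 12 list members, 5 had values above the floor that could be compared. All 5 had a negative difference from CTRL in IMB (median -0.36, against 0.04 over 267 miRNAs) and in DOX (median -0.19, against 0.03). The DOX median is the value of miR-155-5p, which lay at the floor in all 3 DOX pools and in CTRL pool 2. In IMB 4 of 5 were lower than in DOX. That last count depended on the scaling: with no scaling, and with miR-23a-3p and miR-24-3p setting the scale, 5 of 5 were higher in IMB than in DOX (medians 0.14 and 0.21, against 0.26 and 0.33 over 267 miRNAs). None of these differences passed the threshold: in limma the adjusted p was 0.76 to 0.94 for IMB and 0.84 to 0.96 for DOX. Without IMB pool 1, miR-342-3p was lower in IMB than in CTRL by -0.78 (SE 0.11, adjusted p = 0.041) and miR-146a-5p by -0.63 (SE 0.09, adjusted p = 0.041), and miR-146a-5p was lower than in DOX by -0.45 (SE 0.08, adjusted p = 0.049, limma throughout). In that fit 1.7% of the 294 miRNAs were called lower in IMB than in CTRL (5 miRNAs) and 4.08% lower than in DOX (12 miRNAs). Within row 1 the differences of IMB pool 1 from CTRL pool 1 were 0.21 for miR-342-3p and 0.16 for miR-146a-5p, and within row 2 they were -0.65 and -0.58. These calls were not made with IMB pool 1 included, and the row 1 differences have the opposite sign.

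**Figure D2:**
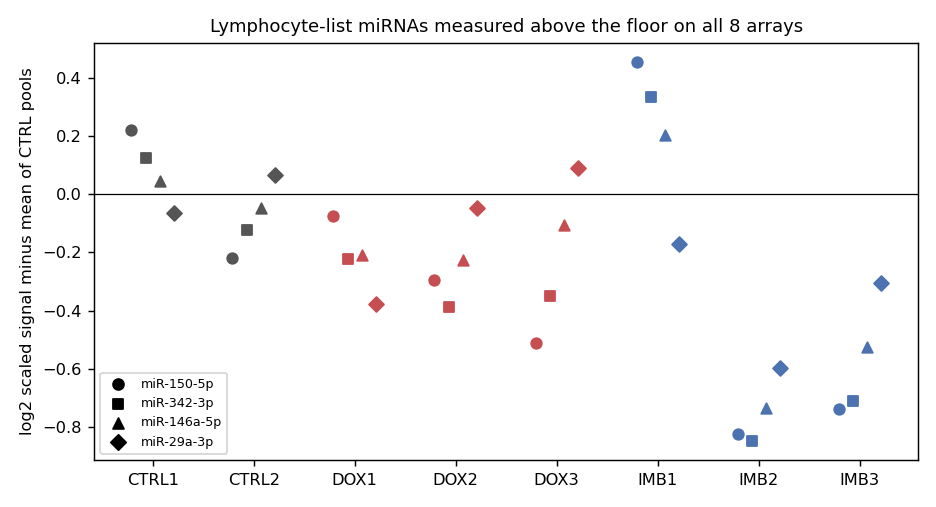
The plot gives, for each of the 8 arrays, the log2 scaled signal minus the CTRL mean for the 4 lymphocyte-list miRNAs measured above the floor on every array (symbols). IMB pool 1 has 3 of the 4 above the control mean and IMB pools 2 and 3 have all 4 below it.

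Over the 8 arrays, and among 229 other tested miRNAs with no value at the floor, miR-342-3p had the pattern most like that of miR-150-5p (Pearson r = 0.97), followed by miR-140-3p (r = 0.93) and miR-3154 (r = 0.92). The least like were miR-6394 (r = -0.92), miR-7005-5p (r = -0.88) and miR-125a-5p (r = -0.87). These correlations are descriptions over 8 arrays that share a slide, groups and a scaling. Without IMB pool 1, r was 0.95 for miR-342-3p, 0.98 for miR-140-3p and 0.88 for miR-3154, so the likeness does not rest on that array. No miR-181 member was detected on all arrays, so none was given such a ranking.

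Ratios within an array do not depend on the scaling. The log2 ratio of miR-150-5p to miR-223-3p, a miRNA of neutrophils and monocytes, was -1.98 and -1.92 in CTRL, -2.19, -2.41 and -2.73 in DOX, and -1.41, -2.26 and -2.47 in IMB. All 3 DOX pools were below both controls, by 0.50 in the mean. Against miR-126a-3p, an endothelial and platelet miRNA, it was -0.70 and -1.22 in CTRL, -1.41, -1.81 and -1.86 in DOX, and 0.03, -1.65 and -2.17 in IMB. Against miR-23a-3p, often used as a reference in plasma, it was -2.44 and -2.79 in CTRL, -2.95, -3.13 and -3.21 in DOX, and -2.23, -2.98 and -3.12 in IMB. In these 3 ratios the DOX pools lay below both controls, with mean differences of -0.50, -0.73 and -0.48. This was common: of 266 other miRNAs set against the same reference, 19.5% had all DOX ratios below both controls for miR-223-3p, 72.9% for miR-126a-3p and 35.3% for miR-23a-3p. The scaled levels of the references were themselves higher in DOX than in CTRL by 0.21 for miR-223-3p, 0.44 for miR-126a-3p and 0.19 for miR-23a-3p (adjusted p = 0.91, 0.78 and 0.91 in limma).

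Against the red cell miRNAs the DOX pools were not lower. The log2 ratio of miR-150-5p to miR-451a was -6.28 and -5.98 in CTRL, -6.10, -5.82 and -5.94 in DOX, and -6.14, -7.44 and -7.02 in IMB. Its mean IMB minus DOX difference was -0.91, and miR-451a itself was higher in IMB than in DOX by 0.84 (adjusted p = 0.32 in limma). How common such a difference against miR-451a is among other miRNAs was not counted. To miR-16-5p it was -2.57 and -2.41 in CTRL, -2.32, -2.28 and -2.43 in DOX, and -2.32, -3.44 and -3.01 in IMB. None of the 15 differences (5 ratios, 3 comparisons) passed: the smallest exact 2-sided permutation p was 0.1 and the smallest value after Benjamini-Hochberg adjustment 0.50. The levels of the red cell list are given beside these ratios. Of its 6 miRNAs, 5 were detected on all arrays and miR-144-5p on none, and their summed scaled signal was 23203 to 38372 in CTRL, 18445 to 27677 in DOX and 32256 to 41055 in IMB, so the ranges of both drugs overlap that of CTRL. Of the 5, miR-144-3p alone passed in limma, with IMB higher than CTRL by 0.82 (SE 0.07, adjusted p = 0.0077) and than DOX by 1.20 (SE 0.06, adjusted p = 9.0e-04). In each of these comparisons 1.02% of the 294 tested miRNAs passed. For DOX against CTRL the adjusted p of the 5 was 0.20 to 0.93. Without scaling none of the 5 passed for IMB against CTRL or DOX. With miR-23a-3p and miR-24-3p setting the scale, none passed for IMB against CTRL and 1 passed against DOX. The difference of miR-451a and miR-23a-3p, an index of red cell RNA in plasma, was 3.18 to 3.84 in CTRL, 2.68 to 3.15 in DOX and 3.899 to 4.45 in IMB, with no overlap between groups. How many other differences of this kind separate the groups was not counted. With that index as a covariate the miR-150-5p differences from CTRL were -0.30 for DOX (SE 0.65) and -0.36 for IMB (SE 0.61), with adjusted p = 1 for both in limma. Without the covariate the SE was 0.42 for both, so the fit with it is less precise.

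**Figure D3:**
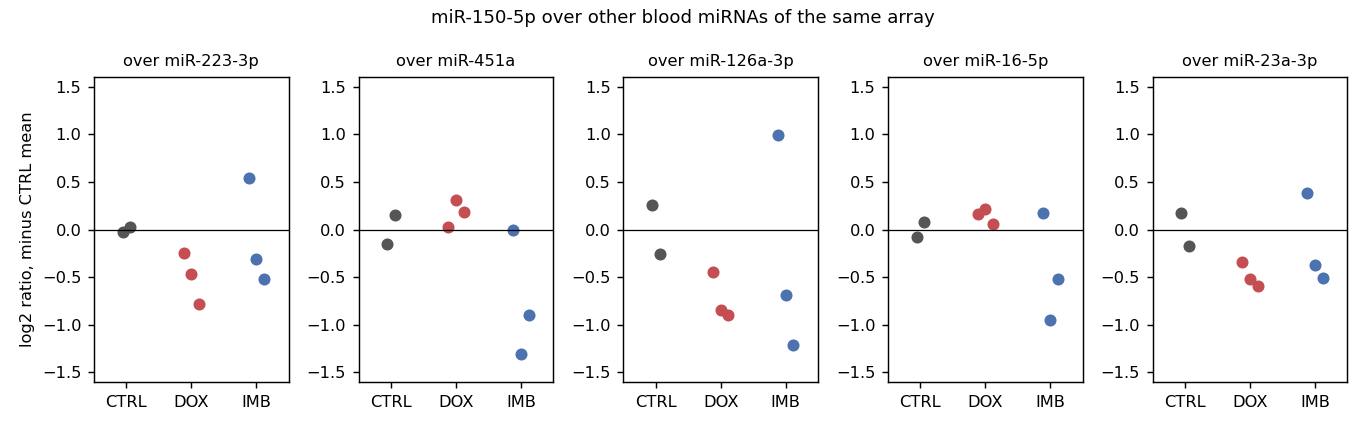
The plot gives the log2 ratio of miR-150-5p to each of 5 other blood miRNAs on the same array, as a difference from the CTRL mean (each point 1 pool). The DOX pools lie below both controls for miR-223-3p, miR-126a-3p and miR-23a-3p and not for miR-451a and miR-16-5p, and 1 IMB pool (pool 1) lies apart from the other 2 throughout.

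Other marker lists gave values in the same arrays. The myeloid list (4 of 5 detected on all arrays, miR-223-5p on none) summed to 4458 to 4527 in CTRL, 3590 to 5031 in DOX and 2796 to 4136 in IMB. The endothelial and platelet list (4 of 4) summed to 871 to 926 in CTRL, 1127 to 1269 in DOX and 662 to 1148 in IMB. The liver list (2 of 2) ran from 1212 to 1502 in CTRL, 1809 to 2520 in DOX and 1086 to 3042 in IMB, and the muscle list (2 of 3 on all arrays, the other on some) from 51.7 to 54.9, 107 to 307 and 92.9 to 1105. Their part in the values of miR-150-5p was not tested.

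The miR-181 family was close to background in plasma. Averaged over spots, its 8 probes had processed signals between 1.24 and 32.3 scanner units on the 8 arrays, whereas the mean over negative-control spots was 0.78 to 1.66 with a spot-to-spot SD of 3.47 to 4.46. Of 946 kept spots of the family, 90.1% were flagged positive and significant but 12.5% well above background. By the well-above-background call miR-181d-5p was detected on 3 arrays (both CTRL and IMB pool 2), miR-181a-5p on 2 (CTRL pool 2 and IMB pool 3), miR-181c-5p on 1 (CTRL pool 2) and miR-181b-5p on none. All 4 lay at the floor of 20.9 scaled units on every array, so on that scale they have no order; miR-181d-5p entered the test, but as 8 equal values. The opposite arms, 6 of the family, gave no spot well above background among 1397 and were detected on no array by either call.

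Agilent's own call is more lenient, and its total signal adds up the probes it calls. For the 32 values of the 4 members (4 miRNAs on 8 arrays), 9 were not detected and are written as 0.1 before scaling, 16 came from 1 probe and 7 from both, matched within 0.1%. A value from both probes is thus higher by construction than one from a single probe, and the scaled total signals below are read with that in mind.

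miR-181a-5p was detected in 2 of 2 CTRL, 1 of 3 DOX and 3 of 3 IMB pools. Its scaled total signal was 3.05 and 4.91 in CTRL, 3.80 in DOX pool 3, and 3.93, 2.97 and 4.39 in IMB, with DOX pools 1 and 2 not detected. miR-181b-5p was detected in 1 of 2 CTRL, 2 of 3 DOX and 3 of 3 IMB pools, at 5.50 in CTRL pool 2, 3.02 and 3.38 in DOX pools 2 and 3, and 3.81, 4.41 and 3.39 in IMB. Wherever they were detected these levels overlap between groups for miR-181a-5p, and for miR-181b-5p 1 control array lies above all others and the other was not detected.

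miR-181c-5p was detected in 2 of 2 CTRL, 0 of 3 DOX and 2 of 3 IMB pools, at 3.03 and 6.93 in CTRL and 4.28 and 2.93 in IMB pools 2 and 3. Of the 422 mouse miRNAs that Agilent's call found on at least 1 array, 15 (3.55%) were detected in both CTRL pools and in no DOX pool. No fold is given for it, since the total signal of an undetected miRNA is not its probes' own level. miR-181d-5p was detected in 2 of 2 CTRL, 2 of 3 DOX and 3 of 3 IMB pools, at 4.34 and 9.28 in CTRL, 7.69 and 3.54 in DOX pools 2 and 3, and 3.73, 5.17 and 2.92 in IMB. Its DOX and IMB levels overlap the lower control.

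**Figure D4:**
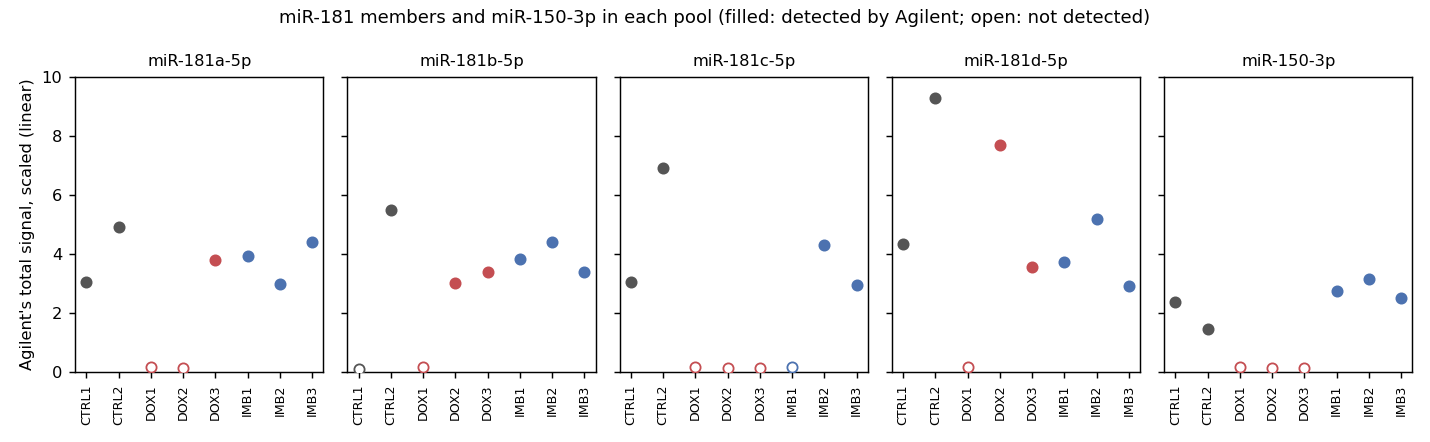
The plot gives Agilent's total signal, scaled, on a linear axis from 0 for the 4 miR-181 members and miR-150-3p in each pool (filled points detected, open points not detected and near 0). miR-181c-5p and miR-150-3p have no filled DOX point, and CTRL pool 2 is the highest point for each of the 4 miR-181 members.

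A limma fit on the total signal, with Agilent's detection in every array of at least 1 group as the filter (355 miRNAs) and a floor of 1.66 scaled units, was added after the data were seen, since the planned scale left the family at its floor. All 5 members were tested in it and none passed, where 0.282% of miRNAs (1) passed for IMB against CTRL, 0.563% (2) for DOX against CTRL and 1.41% (5) for IMB against DOX. The lowest unadjusted p of the members was 0.012, for miR-181c-5p in DOX against CTRL (log2 difference -1.46, SE 0.45, adjusted p = 0.28). It was the 1 member comparison of 15 with an unadjusted p under 0.05, as 10.7% of the 355 miRNAs had in that contrast. miR-181c-5p passed the filter only through CTRL, and all 3 DOX pools were at the floor. Its p therefore follows in part from the filter and the floor and is no support for a difference. For miR-181a-5p the differences were -0.82 (SE 0.41, adjusted p = 0.54) in DOX and -0.06 (SE 0.41, adjusted p = 0.98) in IMB. For miR-181b-5p they were -0.24 (SE 0.51) and 0.35 (SE 0.51), with adjusted p = 0.92 for both. For miR-181d-5p they were -0.83 and -0.73 (SE 0.62 for both, adjusted p = 0.64 and 0.79). All 4 had a negative value in DOX and 3 of 4 in IMB. The control arrays set much of their size: without CTRL pool 2 the miR-181d-5p values were -0.28 and -0.18, and in DOX miR-181c-5p was -0.86 and miR-181a-5p -0.48. The miR-181d-5p value in DOX was also -0.28 without DOX pool 1, the array where it was not detected, and -1.39 without DOX pool 2. Without CTRL pool 1 it was -1.38, and the IMB value was -1.28. Values at the floor stand for arrays without detection, so these differences depend on it, and with the floor 4 times lower the miR-181b-5p value in DOX turned to 0.10.

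On the linear scaled processed signal, with both probes averaged and no floor, the family was compared by exact 2-sided permutation. miR-181c-5p was 10.96 and 15.09 in CTRL, 9.42, 10.17 and 10.56 in DOX, and 10.003, 9.67 and 11.47 in IMB. All 3 DOX pools were below both controls (mean difference -2.98, exact permutation p = 0.1, the smallest that 3 against 2 allow), as were 13% of the 422 miRNAs. miR-181a-5p was 7.62 and 14.62 in CTRL, 6.03, 9.15 and 9.03 in DOX, and 12.54, 9.36 and 12.92 in IMB. All 3 IMB pools were above all DOX pools (mean difference 3.54, exact permutation p = 0.1, the smallest that 3 against 3 allow), as were 7.82% of the 422 miRNAs. miR-181b-5p ran from 8.34 to 14.92 and miR-181d-5p from 11.67 to 20.21 over the 8 arrays, with groups that overlapped in every comparison. Over the 15 tests of the family and miR-150-3p, the lowest value after Benjamini-Hochberg adjustment of these exact p-values was 0.50.

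miR-150-3p, the opposite arm of miR-150-5p and usually the rarer one, was detected by Agilent's call in 2 of 2 CTRL, 0 of 3 DOX and 3 of 3 IMB pools. Of the 422 miRNAs, 6 (1.42%) had this pattern: miR-150-3p, miR-455-3p, miR-486a-3p, miR-486b-3p, miR-5132-5p and miR-546. The others are named here after their values were seen. One of the 4 probes of miR-150-3p, A_54_P3320, carried the signal: before scaling it gave 23.6 and 16.6 in CTRL, 5.09, 6.18 and 2.85 in DOX, and 18.2, 46.2 and 27.3 in IMB. The other 3 probes stayed between -0.58 and 6.19 on every array. All DOX values were thus below all others on that probe, as they were on 8.91% of the 662 probes detected on any array, and after scaling on 3.93%. The scaled values of the probe were 22.1 and 13.4 in CTRL, 6.74, 6.999 and 3.01 in DOX, and 26.2, 30.5 and 24.0 in IMB.

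The scaled total signal of miR-150-3p was 2.37 and 1.44 in CTRL and 2.72, 3.16 and 2.505 in IMB, and 9.86% of the 355 miRNAs tested on that signal had all IMB pools above both controls. Against the lowest detected signal of each DOX array, IMB was at least 1.56-fold higher than DOX on the total signal and at least 1.16-fold higher on the scaled signal of A_54_P3320. No fold of CTRL over DOX is given, because on that probe the CTRL mean lay below the lowest detected signal of the DOX arrays. In the added limma fit the IMB minus DOX difference was 0.74 (SE 0.18, unadjusted p = 0.003, adjusted p = 0.11), IMB minus CTRL 0.49 (SE 0.20, adjusted p = 0.50) and DOX minus CTRL -0.26 (SE 0.20, adjusted p = 0.64). Without CTRL pool 2, IMB minus CTRL was 0.23 and DOX minus CTRL -0.51; without CTRL pool 1 they were 0.74 and 0. With the floor 4 times lower these calls changed: IMB minus DOX was 2.74 (adjusted p = 5.5e-04) and DOX minus CTRL -2.15 (adjusted p = 0.005). The 3 DOX arrays are all at the floor in both fits, so the size of these 2 differences is set by it and their spread in DOX is 0. miR-150-3p was described because its detection differed between groups, and it entered these fits only through CTRL and IMB. The folds of IMB over DOX and the p-values of these fits therefore repeat that choice and are no test of it. On the linear scale with 4 probes averaged, IMB pool 1 at 7.64 lay below CTRL pool 1 at 7.82.

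**Figure D5:**
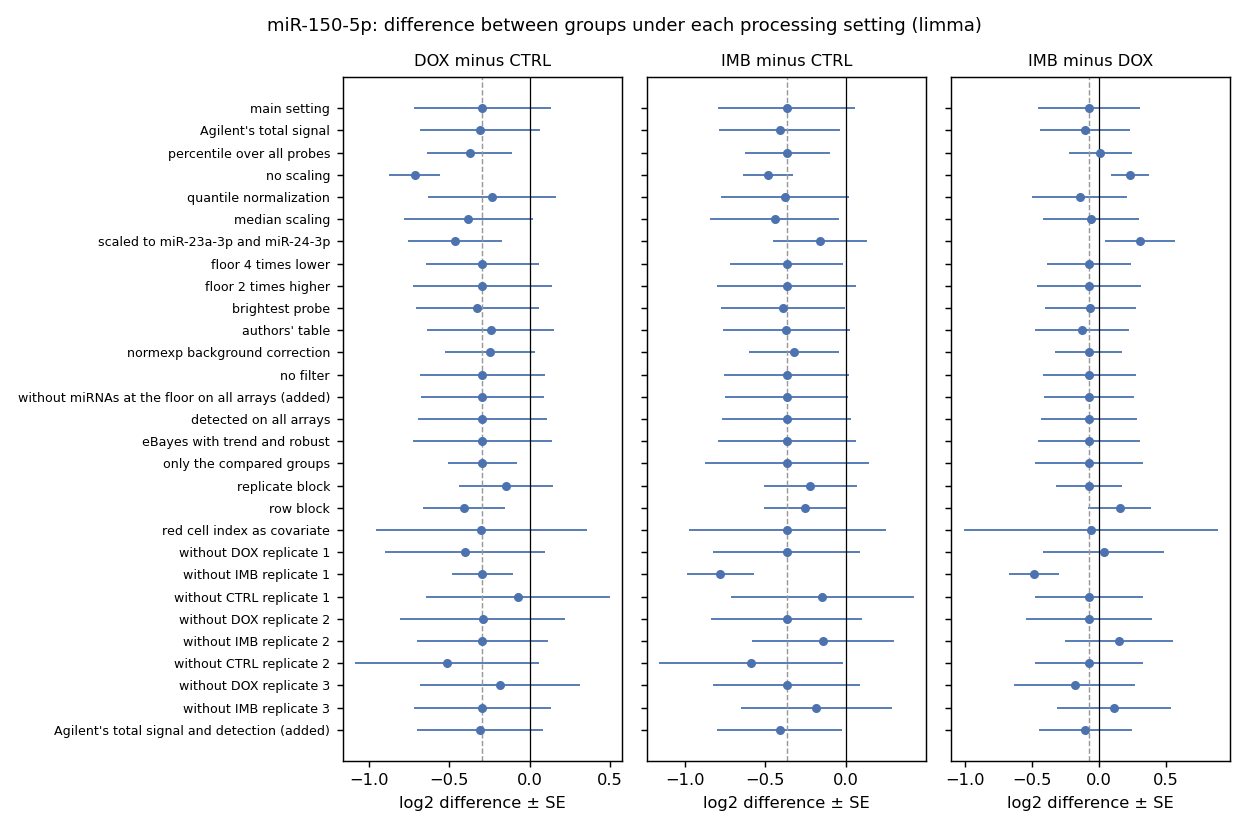
The plot gives the log2 difference of miR-150-5p with its SE for each comparison (panels) under each processing setting (rows); the dashed line marks the main setting and the solid line 0. DOX minus CTRL and IMB minus CTRL lie below 0 in every row, and IMB minus DOX lies on either side of 0, from -0.49 without IMB pool 1 to 0.31 where miR-23a-3p and miR-24-3p set the scale.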

How the data were processed

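The members, marker lists and tests were chosen with earlier results of these data known. Linear spot intensity was taken from the deposited scanner files, which Agilent Feature Extraction (version 11.5.1.1, from the submitters' processing notes) wrote and background-subtracted, per the file headers; no spot was saturated. The authors also deposited a table of log2 values. How it was made the sources used here do not give, and it was one of the alternatives.

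The processed signal of a probe was the mean of its non-outlier spots (7 to 30 per probe). It was scaled to each array's 75th percentile over 454 probes detected on all arrays (multiplied by the geometric mean of those percentiles), averaged over a miRNA's probes, floored at 20.9 (the 1st percentile of detected probes, as a median over arrays) and put on the log2 scale. limma 3.58.1 in R 4.3.3 (lmFit, eBayes, 2-sided) used all 8 arrays and Benjamini-Hochberg adjustment within each comparison, threshold 0.05, with 5 residual and 0.605 prior degrees of freedom. Of 294 tested miRNAs, 27 lay at the floor on all arrays. Single values and ratios were compared by exact permutation. The limma fit was tested on simulated log2 values with known changes, and the steps before it and the permutation tests were not. The pools of a group hold different mice per the labels, and p-values measure the spread between pools.

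Named were the 5 members with every probe, their opposite arms by detection, the measured lymphocyte-list members, and the 3 miRNAs with the highest and 3 with the lowest Pearson r with miR-150-5p. Alternatives changed the scaling, the background correction, the signal, the floor, the filter, the summary of probes or the model of the variance, added a replicate block, a row block or a red cell covariate, took the authors' table, or left out 1 array at a time. Same-numbered pools had correlated deviations in some pairs and not in others (7 pairs, r from -0.24 to 0.40), so numbers were not taken to pair pools. Normexp used the median spot signal. Figures were drawn with matplotlib 3.10.9.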

Additional observations from a re-analysis of the deposited data

Results flagged for a closer look

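miR-150-3p gave a signal outside the planned test, since the well-above-background call did not find it on every array of any group. Its scaled total signal averaged 2.80 in the 3 IMB pools, with a lowest value of 2.505, above the highest of the 2 CTRL pools, 2.37. On the mean of its 4 probes IMB pool 1 does not exceed both controls.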

How the results depend on the processing

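The differences of miR-150-5p from CTRL stayed below 0 in all 30 alternatives for each drug, and no adjusted p was under 0.05. For either probe alone the p was an unadjusted exact permutation p, which cannot go below 0.1 here. Changes to the floor, the filter or the model of the variance left the difference itself as it was, so the 30 are not separate checks. Leaving out single arrays gave -0.78 to -0.14 for IMB and -0.51 to -0.07 for DOX. IMB minus DOX, -0.08, turned to 0.0099 with the percentile over all probes, 0.23 without scaling, 0.31 where miR-23a-3p and miR-24-3p set the scale, and 0.15 with the row block, and ran from -0.49 to 0.15 without single arrays. With a replicate block, which assumes that pool numbers pair the pools, miR-150-5p differed from CTRL by -0.22 (IMB) and -0.15 (DOX) and IMB from DOX by -0.08, none past the threshold. The block gave 0 calls for DOX against CTRL over all miRNAs.

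Calls over all miRNAs were few and moved. IMB against CTRL had 3, but 1 with Agilent's total signal (also with its detection call), quantile normalization, median scaling, either other floor and the authors' table, 0 with the red cell covariate, the miR-23a-3p and miR-24-3p scale, the percentile over all probes and unscaled values, and 0 to 12 without single arrays. DOX against CTRL had 1, but 2 with the total signal (also with its detection call), the percentile over all probes, the floor 4 times lower and the authors' table, 0 with the compared groups alone and the red cell covariate, and 0 to 2 without single arrays. IMB against DOX had 3, but 5 with the total signal (also with its detection call), quantile normalization, the floor 4 times lower, no filter and without miRNAs at the floor on all arrays, 0 with the red cell covariate, and 3 to 20 without single arrays, the 20 and the 12 both without IMB pool 1. The groups do not overlap in the covariate; the cause of these changes was not tested.

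Of the ratios, those of miR-150-5p in IMB against CTRL to miR-223-3p, miR-126a-3p and miR-23a-3p ran from -0.42 to 0.11, -0.95 to 0.15 and -0.44 to 0.014 without single arrays, and IMB minus DOX to miR-126a-3p from -0.22 to 0.88. The ratios of DOX to CTRL kept their signs.

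For the total signal of the miR-181 family, IMB minus CTRL of miR-181a-5p turned to 0.069 with the authors' table and 0.49 (linear units) with no floor, and ran from -0.40 to 0.29 without single arrays. For miR-181b-5p it turned to -0.15 with the floor 2 times higher (-0.52 to 1.21), and DOX minus CTRL to 0.10 with the floor 4 times lower, 0.41 with the authors' table and 0.14 (linear) with no floor (-1.10 to 0.63). IMB minus DOX of miR-181d-5p turned to -0.17 with the floor 2 times higher, -0.00037 with the row block and -1.53 (linear) with no floor (-0.45 to 0.66). miR-150-3p passed with the floor 4 times lower, at 2.74 for IMB minus DOX and -2.15 for DOX minus CTRL. This is no separate support, since it was picked for its detection pattern and lay at the floor in DOX. By Agilent's call miR-181a-5p was detected on 6 arrays in place of 2, miR-181b-5p on 6 in place of 0, miR-181c-5p on 4 in place of 1, miR-181d-5p on 7 in place of 3 and miR-150-3p on 5 in place of 3. The family's signal over background, and the number of arrays, limit these values.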
